A study of Homo sapiens with 12 samples.

Results

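The genes described here are 10 regulators of the integrated stress response: ATF3, ATF4, ATF5, DDIT3, DDIT4, PPP1R15A, PPP1R15B, TRIB3, CHAC1 and SESN2. They were taken by symbol from the deposited count table, which holds 53712 named genes, and all 10 were among the 17228 genes with enough counts to test. The samples were 12 libraries from H9, an established line of human embryonic stem cells. The cells were grown in RSeT, a medium for a naive-like state, and transfected with oligos at 25 nM. The 3 groups, with 4 libraries each, were ASO-Ctr, a control antisense set, ASO-L1, an antisense set against LINE1 (L1) RNA, and SO-L1, a further control whose name the labels do not spell out. After transfection, medium with 10 nM DZNep, which lowers histone methylation, and 5 nM TSA, an inhibitor of histone deacetylases, was given to every culture until harvest at 48 h, without sorting. Every culture also received 0.7 uM trans-ISRIB, 5 uM emricasan, a caspase inhibitor, and 10 uM Y-27632, a ROCK inhibitor, and these 3 agents were removed at 24 h. No group without these agents was analysed here, so their effect on the 10 genes cannot be told apart from the shared baseline. The labels do not say whether the 4 libraries of a group came from separate cultures, so the p-values measure the spread between these libraries, which may be technical.

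In the integrated stress response, kinases that sense different stresses phosphorylate the translation factor eIF2, which lowers protein synthesis in general while the mRNA of the transcription factor ATF4 is translated more. ATF4 and its partners then raise transcripts for amino acid supply, further transcription factors and feedback proteins, and trans-ISRIB blunts this by holding the exchange factor eIF2B active in spite of eIF2 phosphorylation. In pluripotent cells the pathway is known as a response to dissociation, transfection and nutrient or protein folding stress. Because ATF4 is controlled mostly at translation, its RNA is only one of its measures, and no protein was measured here.

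In all, 6 promoter stretches are shown as examples of the matches to stress response motifs that the next paragraph counts, and further matches, in ATF4 and ATF5, are not shown. They are from RefSeq promoter windows on build GRCh38.p14, each written 5′ to 3′ on the strand of its gene, with the matched letters in capitals. Each stretch lies before the RefSeq start and, except for CHAC1, outside the exons of the GENCODE v29 annotation on its gene's strand. The CHAC1 match lies inside such an exon, so only the bases next to it are shown. The stretches are chr19:48872171-48872391 for PPP1R15A (plus strand), chr1:212565157-212565333 for ATF3 (plus strand), chr15:40953251-40953280 for CHAC1 (plus strand), chr1:204411818-204412067 for PPP1R15B (minus strand), chr12:57520518-57520764 for DDIT3 (minus strand) and chr10:72273674-72273919 for DDIT4 (plus strand).
PPP1R15A: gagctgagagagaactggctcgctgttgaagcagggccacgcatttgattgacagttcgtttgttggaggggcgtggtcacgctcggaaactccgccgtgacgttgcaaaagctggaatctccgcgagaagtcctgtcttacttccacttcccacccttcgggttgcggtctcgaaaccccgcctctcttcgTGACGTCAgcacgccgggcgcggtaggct
ATF3: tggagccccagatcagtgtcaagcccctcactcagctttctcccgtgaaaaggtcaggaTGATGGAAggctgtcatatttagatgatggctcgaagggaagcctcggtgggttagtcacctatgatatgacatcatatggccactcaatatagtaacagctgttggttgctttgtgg
CHAC1: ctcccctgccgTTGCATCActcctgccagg
PPP1R15B: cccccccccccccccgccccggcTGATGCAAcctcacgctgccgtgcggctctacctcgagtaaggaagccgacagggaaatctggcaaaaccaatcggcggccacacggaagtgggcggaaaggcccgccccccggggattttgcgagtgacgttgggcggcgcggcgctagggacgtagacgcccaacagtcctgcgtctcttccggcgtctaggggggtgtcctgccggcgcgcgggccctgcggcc
DDIT3: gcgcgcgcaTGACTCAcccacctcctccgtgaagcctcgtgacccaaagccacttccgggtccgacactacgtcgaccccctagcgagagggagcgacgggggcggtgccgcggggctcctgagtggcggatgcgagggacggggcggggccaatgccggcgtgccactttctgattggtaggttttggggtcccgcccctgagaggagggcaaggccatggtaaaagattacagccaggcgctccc
DDIT4: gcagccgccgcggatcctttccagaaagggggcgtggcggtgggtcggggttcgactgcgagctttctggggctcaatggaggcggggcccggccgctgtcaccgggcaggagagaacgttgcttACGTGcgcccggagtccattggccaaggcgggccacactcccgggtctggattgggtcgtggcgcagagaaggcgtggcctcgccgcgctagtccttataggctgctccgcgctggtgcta

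The motifs were searched on both strands of windows of 300 bases, from 250 bases before to 50 bases after each RefSeq start, and no match overlapped a match to another motif in these windows. The 10 genes had between 1 and 3 windows each, and a match in any of them counted for the gene. The percentages below are shares of windows and so are not in the same unit as counts of genes. TGATGNAA, the composite letters that C/EBP and ATF factors share, was in 3.62% of 35116 windows of all genes. It was in 1 of the 2 windows of ATF3 and in the windows of PPP1R15B and CHAC1, the last on the other strand. The CRE letters TGACGTCA, bound by CREB and ATF factors, were in PPP1R15A among the 10 genes and in 1.85% of all windows. The AP-1 letters TGANTCA were in DDIT3 and in 1 window of ATF5, against 7.71% of all windows. ACGTG, the core letters of the hypoxia response element, was in DDIT4 and ATF4, against 21.4% of all windows. ERSE, the motif of the endoplasmic reticulum stress response, had no exact match in the windows of the 10 genes and was in 0.0769% of all windows. The DDIT3 stretch shown above holds a near match, which departs from the searched letters in the last base alone. Only exact matches were counted for every motif, and near matches in the other windows were not searched. TRIB3 and SESN2 held none of the 5 motifs in their windows. A match is a description of letters and does not show that a factor binds there.

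Total counts were between 20367989 and 32180891 per library, and mitochondrially encoded genes took between 4.74% and 8.81% of them. Across all genes the deviations of libraries numbered 1 and 2 from their group means ran against those of numbers 3 and 4 in each pair of groups (r between -0.530 and -0.426), and the labels do not say what the numbers stand for. The libraries of a set were not always close: the chi-square per degree of freedom of their counts was 20.1 between ASO-Ctr numbers 1 and 2 and 11.8 between ASO-L1 numbers 3 and 4, and at most 2.90 within the other sets. ASO-Ctr number 1 was about as far from numbers 3 and 4 of its group (20.3 and 17.5) as from number 2. Each main value below is therefore followed by its behaviour in the 2 number sets where it differs. Values are CPM, counts scaled by effective library size, and fold changes are log2 values ± SE from edgeR's quasi-likelihood test with Benjamini-Hochberg adjustment over all 17228 genes. CPM is not scaled to gene length, so levels are compared between libraries and never between genes.

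With ASO-L1, 8 of the 10 regulators were higher than with ASO-Ctr and none was lower, where 11.6% of all tested genes were higher and 10.7% lower. The transcription factors ATF3, ATF5 and DDIT3, the pseudokinase TRIB3 and the phosphatase subunit PPP1R15A rose between 2.42-fold and 3.83-fold. ATF4, SESN2 and PPP1R15B rose by less, between 1.17-fold and 1.31-fold, and DDIT4 and CHAC1 did not pass the test. The median log2 change of the 10 genes was 0.83, against -0.00 over all tested genes. At least 2-fold higher were 5 of the 10, against 2.42% of all tested genes. The ASO-L1 libraries were all above the ASO-Ctr libraries for 7 of the 10, against 13.3% of all tested genes. The 10 genes were chosen with earlier results of these data known, so these shares describe them and do not test them as a set.

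**Figure D1:**
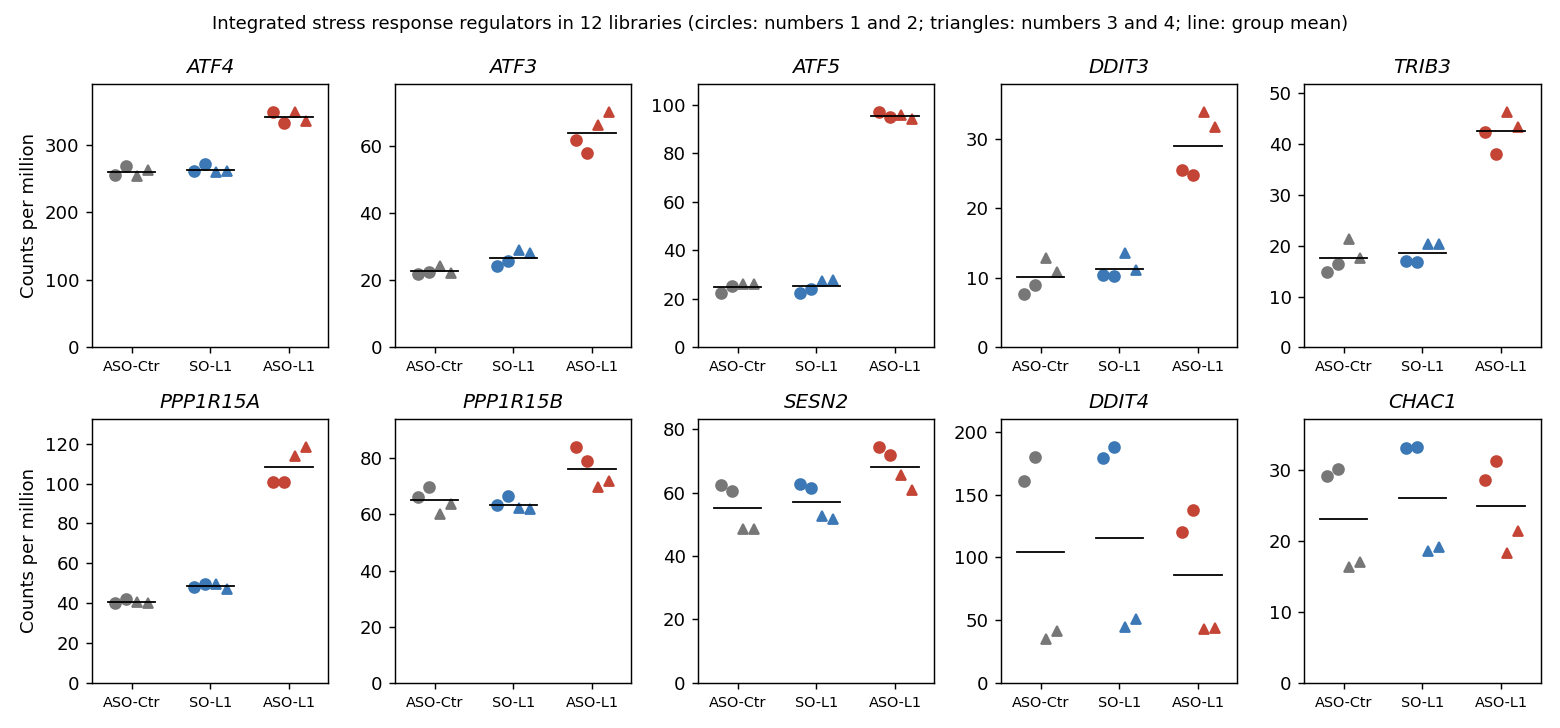
CPM (vertical axes, linear from 0) of each regulator in the 12 libraries, by oligo group, with circles for numbers 1 and 2, triangles for numbers 3 and 4 and a line at the group mean. The ASO-L1 libraries stand above the 8 others for ATF3, ATF5, DDIT3, TRIB3 and PPP1R15A, whereas for DDIT4 and CHAC1 numbers 1 and 2 stand above numbers 3 and 4 in each group and the 3 groups overlap.

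ATF4, the transcription factor at the centre of the pathway, was at 255, 269, 253 and 263 CPM in ASO-Ctr numbers 1 to 4. In SO-L1 it was at 261, 271, 259 and 262 CPM, and in ASO-L1 at 349, 332, 349 and 335 CPM. All ASO-L1 libraries were above all 8 control libraries, and the controls overlapped each other. In log2 terms ATF4 changed by 0.39 ± 0.03 against ASO-Ctr (adjusted p = 6.86e-06) and 0.37 ± 0.03 against SO-L1 (adjusted p = 1.35e-05). The spread within a group was small, with an SD of 7.02 CPM in ASO-Ctr and 8.86 CPM in ASO-L1 (n = 4 each). The pseudogenes ATF4P3 and ATF4P4 reached at most 8 and 9 counts in a library, and ATF4P1 and ATF4P2 had 0 counts in every library.

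ATF5, a transcription factor related to ATF4 and likewise controlled at translation, had the largest fold change of the 10. It was at 22.3, 25.2, 26.1 and 26.0 CPM in ASO-Ctr and at 22.5, 24.1, 27.3 and 27.7 CPM in SO-L1. In ASO-L1 it was at 97.1, 95.1, 95.8 and 94.1 CPM, so that even the lowest of these was more than 3 times the highest control. Its log2 change was 1.94 ± 0.07 against ASO-Ctr (adjusted p = 6.84e-09), the second smallest p of all genes tested, and 1.91 ± 0.07 against SO-L1 (adjusted p = 8.26e-09). In GENCODE v29, exons of ATF5 share 626 bases with exons of NUP62 and 75 with IL4I1, both on the opposite strand. They also share 74 bases with MIR4751 on the strand of ATF5. The strand setting of the authors' counting is not given in the sources used here. NUP62 was lower in ASO-L1, by a log2 change of -0.27 ± 0.06 (adjusted p = 0.00445), and MIR4751 had 0 counts in every library. IL4I1, with 4 to 16 counts per library, did not pass, at 0.43 ± 0.29 (adjusted p = 0.341).

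ATF3, a transcription factor induced by many stresses and also a partner of JUN, was at 21.96, 22.4, 24.2 and 22.3 CPM in ASO-Ctr. In SO-L1 it was at 24.3, 25.7, 29.02 and 28.2 CPM, all above the highest ASO-Ctr library. In ASO-L1 it was at 61.9, 57.9, 66.3 and 70.2 CPM. The 3 groups did not overlap, and the step from SO-L1 to ASO-L1 was far larger than that from ASO-Ctr to SO-L1. ATF3 changed by log2 values of 1.49 ± 0.07 against ASO-Ctr (adjusted p = 5.10e-08) and 1.26 ± 0.07 against SO-L1 (adjusted p = 2.97e-07).

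DDIT3, which encodes the C/EBP family factor CHOP and is known for its part in cell death under lasting stress, was at 7.68, 8.98, 12.9 and 10.9 CPM in ASO-Ctr, at 10.4, 10.2, 13.5 and 11.2 CPM in SO-L1, and at 25.6, 24.8, 33.9 and 31.7 CPM in ASO-L1. All ASO-L1 libraries were above all controls, and in every group numbers 3 and 4 were above numbers 1 and 2. DDIT3 changed by log2 values of 1.52 ± 0.16 against ASO-Ctr (adjusted p = 2.52e-05) and 1.35 ± 0.16 against SO-L1 (adjusted p = 7.19e-05). In GENCODE v29 its exons share 355 bases with exons of MARS and 58 with MBD6, both on the opposite strand, and 105 with AC022506.1 on its own strand. MARS, the methionyl-tRNA synthetase, went the other way, with a log2 change of -0.16 ± 0.04 (adjusted p = 0.0211), and MBD6 did not pass at 0.04 ± 0.07.

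TRIB3, a pseudokinase that binds ATF4 and CHOP and restrains them, was at 14.8, 16.4, 21.4 and 17.5 CPM in ASO-Ctr. In SO-L1 it was at 16.9, 16.8, 20.3 and 20.3 CPM, and in ASO-L1 at 42.3, 38.1, 46.3 and 43.3 CPM. The controls overlapped each other and all ASO-L1 libraries were above them. TRIB3 changed by log2 values of 1.27 ± 0.11 against ASO-Ctr (adjusted p = 5.60e-06) and 1.19 ± 0.11 against SO-L1 (adjusted p = 1.21e-05).

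Both PPP1R15 proteins bring the phosphatase PP1 to eIF2 and so end the response, PPP1R15A (GADD34) as the stress-induced subunit and PPP1R15B (CReP) as the constitutive one. PPP1R15A was at 40.2, 41.9, 40.5 and 40.1 CPM in ASO-Ctr, at 47.9, 49.4, 49.5 and 47.1 CPM in SO-L1 and at 101, 101, 114 and 118 CPM in ASO-L1. The 3 groups formed separate steps with no overlap. Its log2 change was 1.41 ± 0.06 against ASO-Ctr (adjusted p = 1.05e-08) and 1.16 ± 0.06 against SO-L1 (adjusted p = 7.51e-08). PPP1R15B was at 66.2, 69.9, 60.3 and 63.7 CPM in ASO-Ctr, at 63.4, 66.4, 62.2 and 61.9 CPM in SO-L1 and at 83.9, 79.2, 69.9 and 72.01 CPM in ASO-L1. The lowest ASO-L1 library of PPP1R15B, number 3, was only just above the highest ASO-Ctr library, number 2. The log2 change of PPP1R15B was 0.23 ± 0.06 against ASO-Ctr (adjusted p = 0.0193) and 0.26 ± 0.06 against SO-L1 (adjusted p = 0.0100). The first of these calls was lost without ASO-Ctr number 3 (adjusted p = 0.0750), ASO-Ctr number 4 (0.0515), ASO-L1 number 1 (0.0806) or ASO-L1 number 2 (0.0697).

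SESN2, a sestrin that restrains the growth kinase mTORC1 when leucine is scarce, was at 62.4, 60.6, 48.7 and 48.7 CPM in ASO-Ctr. In SO-L1 it was at 62.8, 61.4, 52.6 and 51.9 CPM, and in ASO-L1 at 74.3, 72.04, 65.7 and 60.8 CPM. In every group numbers 1 and 2 were above numbers 3 and 4, and ASO-L1 number 4 lay below ASO-Ctr number 1, so the groups overlapped. Within each number set all ASO-L1 libraries were above all controls of that set. The log2 change of SESN2 was 0.31 ± 0.10 against ASO-Ctr (adjusted p = 0.0420) and 0.26 ± 0.10 against SO-L1 (adjusted p = 0.0916). With the library number as a block, the adjusted p-values were 2.26e-08 and 1.04e-06. The call against ASO-Ctr was lost without ASO-Ctr number 3 (adjusted p = 0.134), ASO-Ctr number 4 (0.116), SO-L1 number 3 (0.0558), ASO-L1 number 1 (0.135), ASO-L1 number 2 (0.119) or ASO-L1 number 3 (0.0628).

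DDIT4 (REDD1), which restrains mTORC1 through the TSC complex, was at 161, 180, 34.8 and 41.2 CPM in ASO-Ctr numbers 1 to 4. In SO-L1 it was at 179, 188, 44.6 and 50.9 CPM, and in ASO-L1 at 120, 138, 42.7 and 43.8 CPM. Numbers 1 and 2 were at least 2 times as high as numbers 3 and 4 in each group, and the 3 groups overlapped. In GENCODE v29, DDIT4 shares 847 exon bases with DDIT4-AS1 on the opposite strand, for which no count was used here. The log2 change of DDIT4 was -0.27 ± 0.66 against ASO-Ctr (adjusted p = 0.827) and -0.42 ± 0.66 against SO-L1 (adjusted p = 0.722). In the pairs of libraries with the same number, ASO-L1 minus ASO-Ctr was -0.41 and -0.38 in log2 CPM for numbers 1 and 2, and 0.30 and 0.09 for numbers 3 and 4. Fitted on numbers 1 and 2 alone, DDIT4 was lower in ASO-L1 (-0.40 ± 0.06, adjusted p = 2.10e-04), and fitted on numbers 3 and 4 alone it was higher (0.19 ± 0.07, adjusted p = 0.0308). Against SO-L1 the signs were not opposite: ASO-L1 minus SO-L1 was -0.57, -0.45, -0.06 and -0.22 in log2 CPM in the same-number pairs. Numbers 1 and 2 alone gave -0.51 ± 0.06 against SO-L1 (adjusted p = 2.72e-05), numbers 3 and 4 alone -0.13 ± 0.07 (adjusted p = 0.136), and all 4 with the number as a block -0.35 ± 0.12 (adjusted p = 0.0582). The difference between the changes against ASO-Ctr in the 2 sets was 0.59 ± 0.15 and did not pass the edgeR test over all genes (adjusted p = 0.232), while DESeq2 gave 0.0498 and edgeR with no filter on low counts 4.24e-11.

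CHAC1, which breaks down glutathione and is a late target of ATF4 and CHOP, was at 29.2, 30.2, 16.4 and 17.02 CPM in ASO-Ctr. In SO-L1 it was at 33.1, 33.3, 18.7 and 19.2 CPM, and in ASO-L1 at 28.7, 31.4, 18.3 and 21.4 CPM. Numbers 1 and 2 were above numbers 3 and 4 in each group, and the 3 groups overlapped. Within numbers 3 and 4, the libraries of ASO-L1 and SO-L1 were all above both ASO-Ctr libraries. The log2 change of CHAC1 was 0.11 ± 0.27 against ASO-Ctr (adjusted p = 0.828) and -0.06 ± 0.26 against SO-L1 (adjusted p = 0.916). In numbers 3 and 4 alone it was 0.25 ± 0.08 against ASO-Ctr (adjusted p = 0.0104), and in numbers 1 and 2 alone 0.02 ± 0.07 (adjusted p = 0.857). Against SO-L1 it passed in neither set, at 0.07 ± 0.08 and -0.14 ± 0.07. The difference between the number sets was not past the edgeR test (0.22 ± 0.10, adjusted p = 0.469).

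**Figure D2:**
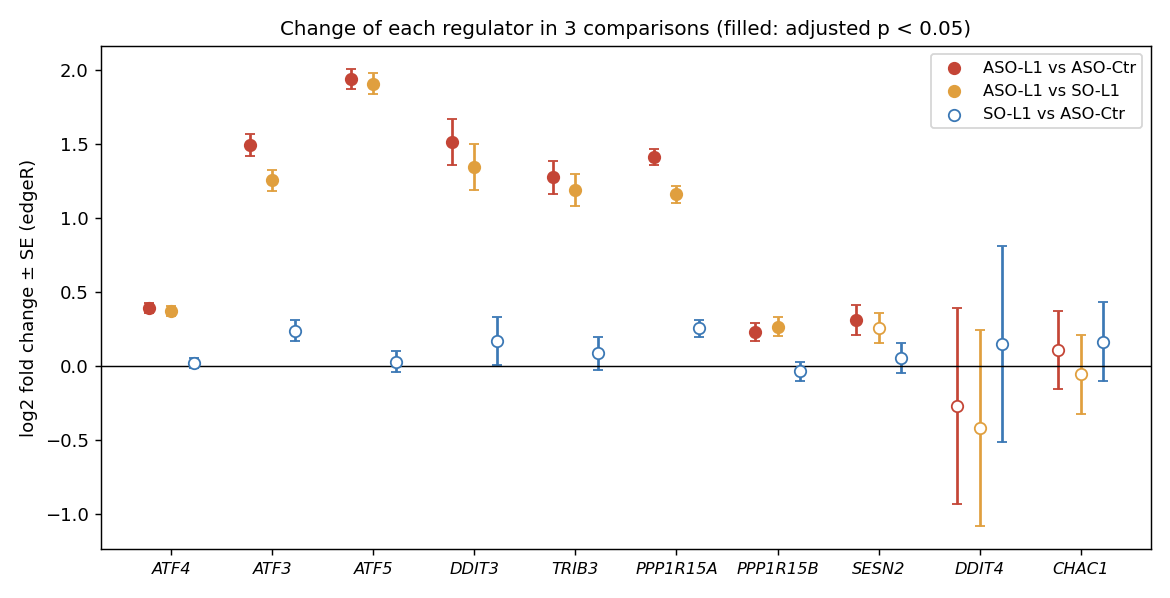
Log2 fold change ± SE (vertical axis) of each regulator from edgeR in the 3 comparisons, with filled points for an adjusted p under 0.05. The changes of ASO-L1 against ASO-Ctr and against SO-L1 are 1.41 and 1.16 for PPP1R15A, 1.49 and 1.26 for ATF3 and 1.94 and 1.91 for ATF5, and the wide errors of DDIT4 and CHAC1 go with their split by library number.

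Against SO-L1, 7 of the 10 regulators were higher in ASO-L1 and none was lower, where 10.7% of all tested genes were higher and 9.64% lower. The same 5 genes, ATF3, ATF5, DDIT3, TRIB3 and PPP1R15A, were at least 2-fold higher as against ASO-Ctr. For 7 of the 10 all ASO-L1 libraries were above all SO-L1 libraries, against 12.7% of all tested genes. Both comparisons use the same ASO-L1 libraries, so they are not independent of each other. In the authors' deposited table for ASO-L1 against SO-L1 the log2 fold change was 1.91 for ATF5, 1.34 for DDIT3, 1.25 for ATF3, 1.18 for TRIB3 and 1.16 for PPP1R15A. The authors' deposited table also gave 0.26 for SESN2 with an adjusted p of 8.02e-04, where the unblocked edgeR fit missed the threshold. For DDIT4 and CHAC1 the authors' deposited table gave -0.34 (adjusted p = 0.458) and -0.05 (adjusted p = 0.858).

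SO-L1 against ASO-Ctr, the comparison of the 2 controls, gave 0 called regulators in edgeR's test, where 0% of all tested genes were higher and 0.029% lower. At an unadjusted p under 0.05, 2 of the 10 passed, PPP1R15A and ATF3, against 3.06% of all tested genes. Both were higher in SO-L1 with no overlap between the groups, where 1.04% of all tested genes were higher without overlap. The log2 change was 0.25 ± 0.06 for PPP1R15A and 0.24 ± 0.07 for ATF3. With the library number as a block both passed edgeR's test, PPP1R15A at an adjusted p of 0.00130 and ATF3 at 0.00817, where 0.424% of all tested genes were higher. DESeq2 called PPP1R15A alone (adjusted p = 0.0371). Within numbers 3 and 4 alone, edgeR called PPP1R15A, ATF3 and DDIT4 higher in SO-L1, and within numbers 1 and 2 alone it called PPP1R15A, where 0.367% and 0.251% of all tested genes were higher.

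**Figure D3:**
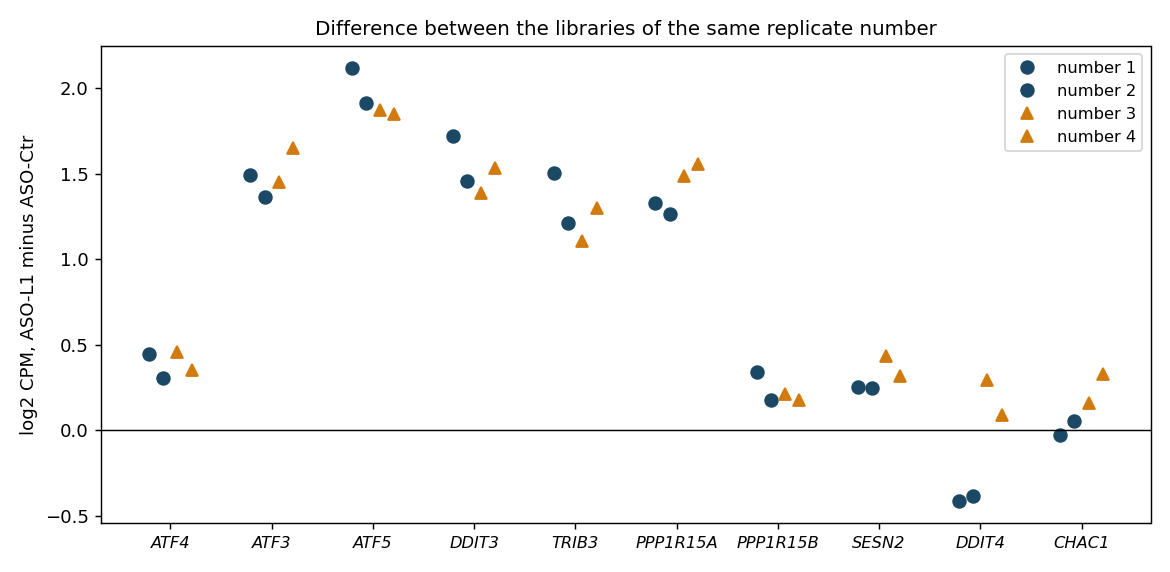
Difference in log2 CPM between the ASO-L1 and the ASO-Ctr library of the same number (vertical axis) for each regulator, with circles for numbers 1 and 2 and triangles for numbers 3 and 4. All 4 differences are above 0 for 8 regulators; those of DDIT4 are -0.41, -0.38, 0.30 and 0.09, and CHAC1 has 3 above 0 and 1 below.

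The number sets were compared directly over the 3 groups, a comparison added after the values had been seen. Numbers 3 and 4 differed from numbers 1 and 2 in 8 of the 10 regulators, 4 higher and 4 lower, where 57.2% of all tested genes differed. DDIT4 was 3.73-fold lower in numbers 3 and 4, with means of 43.0 ± 5.24 against 161 ± 26.7 CPM (SD, n = 6 each) and a log2 difference of -1.90 ± 0.06 (adjusted p = 2.73e-08). CHAC1 was 1.68-fold lower, at 18.5 ± 1.77 against 31.0 ± 1.95 CPM (adjusted p = 1.60e-21), with no overlap between the sets for either gene. SESN2 and PPP1R15B were lower by log2 differences of -0.26 ± 0.03 and -0.13 ± 0.03. DDIT3, TRIB3, ATF3 and ATF5 were higher in numbers 3 and 4, by 0.38 ± 0.05, 0.25 ± 0.05, 0.15 ± 0.04 and 0.11 ± 0.03. ATF4 and PPP1R15A did not pass, at -0.02 ± 0.02 (adjusted p = 0.597) and 0.05 ± 0.03 (adjusted p = 0.108). What the number sets share, such as a culture or sequencing batch, is not given in the labels.

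**Figure D4:**
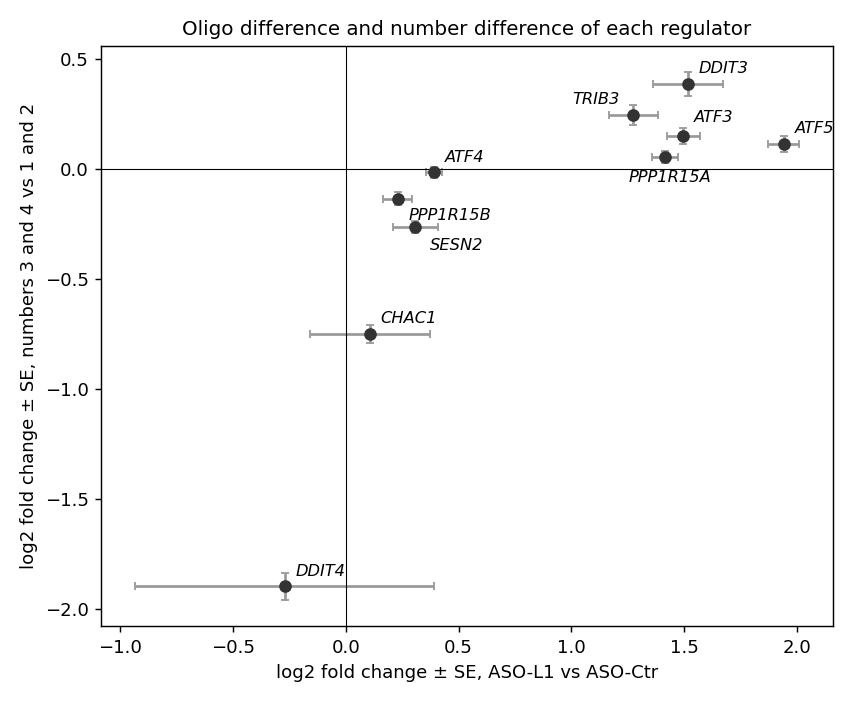
Log2 fold change ± SE of each regulator in ASO-L1 against ASO-Ctr (horizontal axis) and in numbers 3 and 4 against numbers 1 and 2 over all groups (vertical axis), both from edgeR. The 5 genes that rose most with ASO-L1 differ by at most 0.38 between the number sets, and DDIT4 and CHAC1 differ by -1.90 and -0.75.

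The ASO-L1 rises also held within each number set. These fits use part of the same libraries as the main fit, so they are not independent of it. In numbers 1 and 2 alone, 8 regulators passed as higher with ASO-L1 and DDIT4 as lower, where 17.6% of all tested genes were higher and 17.6% lower. In numbers 3 and 4 alone all 10 were higher, where 17.9% of all tested genes were higher. None of the 10 passed the edgeR test of a difference in the ASO-L1 change between the sets, which 0.778% of all tested genes passed in 1 direction or the other. The closest to the threshold was PPP1R15A, at 0.23 ± 0.07 (adjusted p = 0.123), with changes of 1.29 in numbers 1 and 2 and 1.52 in numbers 3 and 4. In the authors' deposited batch-corrected log2 values, DDIT4 was at 6.44, 6.47, 6.15 and 6.23 in ASO-Ctr numbers 1 to 4 and at 6.04, 6.11, 6.46 and 6.33 in ASO-L1. In that table numbers 1 and 2 of DDIT4 were above numbers 3 and 4 in ASO-Ctr and below them in ASO-L1. The SO-L1 libraries lay closer together than those of either other group. A correction that removes the mean difference between the number sets leaves a group-dependent difference with opposite signs in the groups. These values thus restate the set difference of the DDIT4 change given above and are not a separate result.

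The profile of each regulator over the 12 libraries was set beside those of all other tested genes by the root mean square (RMS) difference of mean-centred log2 CPM, where 0 is an identical profile. Among the 10 themselves, ATF3 and PPP1R15A were the most alike, at 0.084. S100A14, outside the 10, was nearer to ATF3, at 0.077. Outside the 10, the genes nearest to ATF3 were S100A14, GPR56 and CRYAB, and those nearest to PPP1R15A were TSC22D3, S100A14 and TMBIM1. Nearest to TRIB3 was SLC3A2, the shared heavy chain of several amino acid transporters, at 0.11, followed by SIK1 and MMP9. Nearest to ATF5 were CNN1, ELF4 and LYPD3, and nearest to DDIT3 were GOLGA8I, RP11-422J8.1 and TNS4. DDIT4 was nearest to EGLN1 at 0.15, STC1 at 0.19 and SLC16A3 at 0.25, against 0.97 for DDIT4's own deviation from its mean. CHAC1 was nearest to P4HA2, ZNF449 and LRP11. The nearest were ATP6V1B2, MKRN2 and CEP55 for ATF4, RAB33B, WASL and B3GAT3 for SESN2, and MRPL2, B4GALT1 and ZBTB33 for PPP1R15B, at RMS differences between 0.033 and 0.051. The own deviations of ATF4, SESN2 and PPP1R15B from their means were also small, at 0.18, 0.19 and 0.14. Their small RMS differences therefore do not mark a closer likeness than those of the other regulators.

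**Figure D5:**
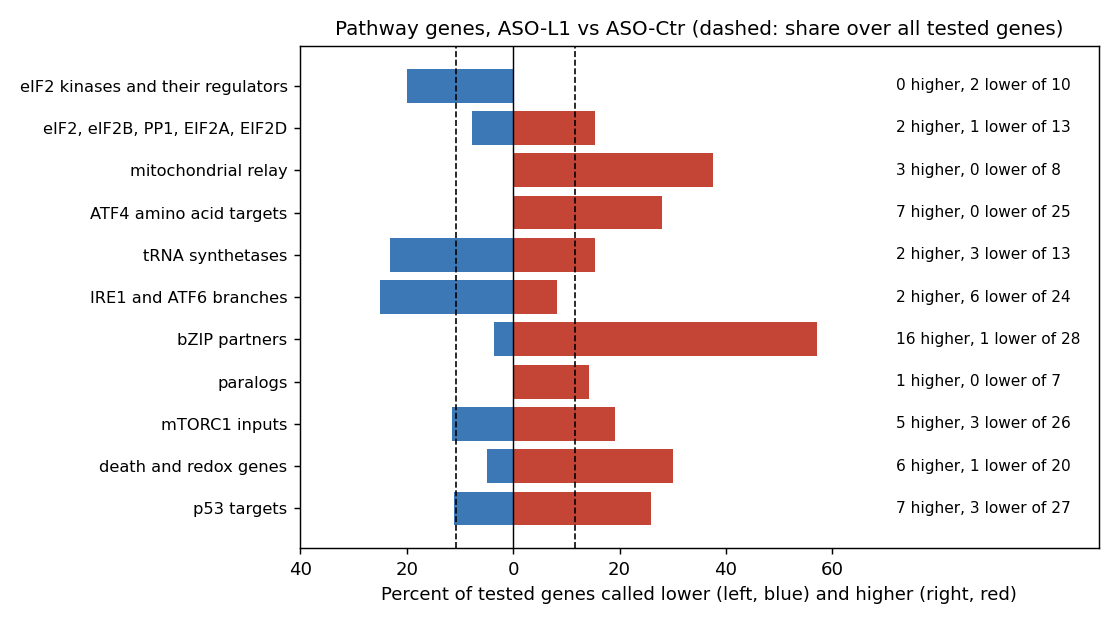
Percent of the tested genes of each pathway list that edgeR called lower (left) and higher (right) in ASO-L1 against ASO-Ctr, with the counts at the right and dashed lines at the shares over all tested genes, 10.7% and 11.6%. Of the 11 lists plotted, the bZIP partners have the largest share of higher genes, 16 of 28. The marker lists are not plotted. Among them, 6 of 10 tested trophectoderm and amnion markers were higher, a larger share. The fibroblast and feeder markers had 6 of 13 higher and the core pluripotency genes 0 of 14.

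The rest of the pathway was read from lists of genes by role, in ASO-L1 against ASO-Ctr, with the shares of all tested genes (11.6% higher, 10.7% lower) as the background throughout. With the library number as a block, 22.5% of all tested genes were higher and 22.5% lower. The lists too were chosen with earlier results of these data known, so their shares are descriptions and not tests. Upstream, 0 of 10 eIF2 kinases and their regulators were higher and 2 were lower, and with the number as a block 1 was higher and 4 were lower. The amino acid sensor EIF2AK4 (GCN2) fell from 146 ± 8.72 to 127 ± 5.20 CPM, a log2 change of -0.21 ± 0.05 (adjusted p = 0.00608). DNAJC3, a chaperone that inhibits eIF2 kinases, fell by 0.26 on the log2 scale (adjusted p = 0.00310). EIF2AK1 (HRI), EIF2AK2 (PKR) and EIF2AK3 (PERK) did not pass, at -0.08 ± 0.06, -0.09 ± 0.07 and -0.02 ± 0.05. EIF2AK2 passed as lower with the block (adjusted p = 0.0468). These are RNA levels, and kinase activity was not measured.

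Among 13 genes for subunits of eIF2, eIF2B and PP1 and the separate initiation factors EIF2A and EIF2D, 2 were higher and 1 was lower, and with the number as a block 4 were higher and 3 lower. EIF2S1, the eIF2 subunit that the kinases phosphorylate, rose from 142 ± 10.3 to 164 ± 9.62 CPM, a log2 change of 0.20 ± 0.06 (adjusted p = 0.0358). EIF2B4, a subunit of the exchange factor that trans-ISRIB binds, rose by 0.22 ± 0.05 (adjusted p = 0.00472), and EIF2D, no subunit of these complexes, fell by 0.27 (adjusted p = 0.00181). In the list of the mitochondrial relay, the OMA1 route from mitochondria to HRI with mitochondrial chaperones and the secreted factor GDF15, 3 of 8 were higher and none lower, and with the block 4 were higher and 2 lower. These were the mitochondrial chaperone HSPA9 (0.24 ± 0.04), GDF15 (0.55 ± 0.10) and the mitochondrial protease LONP1 (0.17 ± 0.05). FGF21 was not tested, with 2 to 12 counts per library.

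Of 25 known targets of ATF4, most of them in amino acid supply, 7 were higher and none was lower, and with the number as a block 9 were higher and 4 lower. SLC3A2 rose from 261 ± 27.3 to 572 ± 68.1 CPM, a log2 change of 1.13 ± 0.10 (adjusted p = 6.26e-06). CEBPG and CEBPB, both C/EBP factors that pair with ATF4, rose by 0.42 ± 0.05 and 0.84 ± 0.11, and the cationic amino acid transporter SLC7A1 by 0.29 ± 0.04. The median log2 change of the list was 0.05, against 0.83 for the 10 regulators. Of 13 aminoacyl-tRNA synthetase and tRNA export genes, 2 were higher and 3 lower, and with the block 5 were higher and 4 lower. The synthetases TARS, SARS and MARS fell by 0.32, 0.36 and 0.16 on the log2 scale, and NARS rose by 0.19 ± 0.06 (adjusted p = 0.0306).

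In the IRE1 and ATF6 branches of the unfolded protein response, which run beside the eIF2 kinase PERK, 2 of 24 genes were higher and 6 lower, and with the number as a block 2 were higher and 9 lower. HERPUD1, a factor of endoplasmic reticulum protein degradation, rose by 0.84 ± 0.09 (adjusted p = 2.23e-05). The endoplasmic reticulum chaperone HSP90B1 fell from 1629 ± 54.6 to 1283 ± 101 CPM, a log2 change of -0.34 ± 0.05 (adjusted p = 3.97e-04). PDIA4, a disulfide isomerase, fell by 0.30, and the transcription factor CREB3L2 by 0.46 on the log2 scale (adjusted p = 9.63e-04 and 2.56e-05).

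The bZIP factors are the leucine zipper family to which ATF3, ATF4, ATF5 and DDIT3 belong and with whose members they pair. Of 28 tested genes in this list, 16 were higher and 1 lower, and with the number as a block 19 were higher and 3 lower. JUN, a core AP-1 subunit and partner of ATF3, rose from 53.5 ± 5.21 to 148 ± 4.36 CPM, a log2 change of 1.47 ± 0.07 (adjusted p = 2.61e-08). The small MAF factors MAFF and MAFG rose by 1.86 ± 0.14 and 0.47 ± 0.05, and CREB5 by 1.29 ± 0.15. The list's median log2 change was 0.49. CEBPB and CEBPG are counted here too, as well as among the ATF4 targets, and CEBPA and BATF were not tested at 1 to 21 and 0 to 2 counts.

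Of 7 paralogs of the regulators, 1 was higher and none lower, and with the number as a block 2 were higher and 2 lower. TRIB1, a pseudokinase related to TRIB3, rose from 45.7 ± 5.46 to 61.2 ± 3.07 CPM, a log2 change of 0.42 ± 0.09 (adjusted p = 0.00512), and TRIB2 did not pass at -0.08 ± 0.18. JDP2, the closest relative of ATF3, was at 0.58 ± 0.20 (adjusted p = 0.0546) and passed with the block (adjusted p = 1.66e-09). The sestrins SESN1 and SESN3 were at -0.17 ± 0.18 and -0.46 ± 0.36, and both passed as lower with the block (adjusted p = 4.18e-04 and 5.94e-12). DDIT4L and CHAC2 did not pass in either fit, at -0.15 ± 0.14 and -0.10 ± 0.22.

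Around mTORC1, the growth kinase that SESN2 and DDIT4 restrain, 5 of 26 genes were higher and 3 lower, and with the number as a block 8 were higher and 7 lower. The Rag GTPases RRAGC and RRAGD, which bring mTORC1 to the lysosome, rose by 0.43 ± 0.05 and 0.84 ± 0.12, and ITFG2, of the KICSTOR complex, by 0.35 ± 0.06. SEC13, a shared subunit of the GATOR2 complex, the nuclear pore and COPII coats, fell from 113 ± 4.52 to 79.8 ± 2.65 CPM, a log2 change of -0.51 ± 0.06 (adjusted p = 3.75e-05). Of 20 death and redox genes known downstream of CHOP, ATF4 and CHAC1, 6 were higher and 1 lower, and with the block 9 were higher and 3 lower. Against SO-L1, 4 of these 20 were higher and 3 lower, and with the block 8 and 7. GADD45B, a stress sensor of the GADD45 family, rose by 1.94 ± 0.20, its relative GADD45A by 1.39 ± 0.18 and the autophagy receptor SQSTM1 by 1.02 ± 0.08. TNFRSF10B (DR5), a death receptor known as a CHOP target, fell from 84.1 ± 8.11 to 54.5 ± 3.85 CPM, a log2 change of -0.63 ± 0.08 (adjusted p = 1.63e-04).

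ATF3, DDIT4 and SESN2 are also known as targets of p53, so its targets were listed as well. Of 27 tested, 7 were higher and 3 lower, and with the number as a block 9 were higher and 11 lower, with a median log2 change of -0.09. The nuclease AEN, the kinase PLK3 and PHLDA3 rose by 0.42 ± 0.04, 0.83 ± 0.11 and 0.36 ± 0.05, and TNFRSF10B, which is in this list too, fell.

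Markers of the cells and of cell types the cultures could hold were read in the same libraries. Of 14 core pluripotency genes, 7 fell with ASO-L1 and none rose, and with the number as a block 12 fell. Their summed level was between 11263 and 11941 CPM in ASO-Ctr, between 11107 and 11500 in SO-L1 and between 9804 and 10297 in ASO-L1, so the genes that define the cells were present in every library. Of 13 tested fibroblast and feeder markers, 6 were higher and none lower, with the block 7 higher and 3 lower, and the list summed to between 867 and 992 CPM in ASO-Ctr, between 865 and 1007 in SO-L1 and between 1232 and 1307 in ASO-L1. The 5 markers of this list with too few counts to test were FAP with 0 counts, DCN with at most 1, LUM with at most 3, COL3A1 with at most 9 and PDGFRB with at most 17 in any library. Of 10 tested trophectoderm and amnion markers, 6 were higher and none lower, with the block 6 higher and 1 lower, and the list summed to between 705 and 825 CPM in ASO-Ctr, between 716 and 864 in SO-L1 and between 1078 and 1139 in ASO-L1. The 8 markers of this list with too few counts to test were CGA, HAND1, TP63, CDX2, VTCN1, CGB, GATA3 and TFAP2A, with at most 1, 3, 3, 5, 6, 7, 9 and 13 counts in any library. The part of these shifts in the changes of the 10 regulators was not tested, and in bulk RNA fewer cells of a type and less RNA per cell cannot be told apart.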

How the data were processed

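Polyadenylated RNA was sequenced from strand-marking libraries, per the labels' protocols. The submitters' processing notes name Trim Galore 0.4.0, TopHat2 2.0.13, featureCounts and Subread 1.5.0 with build hg19. The authors deposited raw counts per gene symbol, in a table whose name carries the tag rmDup, which reads as removal of duplicates. They also deposited a table of log2 values that its name calls batch corrected, by a method not given in the sources used here, and a table for ASO-L1 against SO-L1 with log2 fold changes, p-values and adjusted p-values. One nameless row of 10 counts was left out.

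The count tests used edgeR 4.0.16 under R 4.3.3, with filterByExpr (least count 10, least total count 15), TMM scaling, and a robust quasi-likelihood fit of the 3 group means to the 12 libraries together. A gene was called at a Benjamini-Hochberg adjusted p under 0.05 over all tested genes, in two-sided tests. The SE is the log2 change divided by the square root of F. Alternatives were the library number as a block, DESeq2 1.42.0, scaling by total count, no filter, each number set alone and each library left out. On simulated counts for ASO-L1 against ASO-Ctr (17044 genes), 71% of 1.5-fold and 96% of 3-fold changes were recovered. The simulated libraries varied independently and held no split by number set, so these rates do not give the power on the real counts.

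The 10 genes, the 14 lists, the named genes and the tests were chosen with earlier results of these data known. Named are all 10 genes, up to 4 called genes of a list by smallest p, the paralogs, the eIF2 kinases, EIF2S1, and the 3 nearest profiles of each of the 10. Marker lists are given by counts and sums. DNAJC3 and the other list genes are named for ASO-L1 against ASO-Ctr alone.

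After subtraction of each group mean, same-numbered libraries from 2 groups had r between 0.450 and 0.561 over genes in 12 pairs. Other numbers of the same set (1 with 2, 3 with 4) gave 0.455 to 0.543, and numbers of different sets -0.530 to -0.426. The r values thus show the split into number sets and do not show that equal numbers pair the libraries. The block and the same-number differences follow the numbers in the labels, which do not say what equal numbers share. No 2 libraries of a group agreed within sampling noise (chi-square per degree of freedom 1.96 to 37.2).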

Additional observations from a re-analysis of the deposited data

Results flagged for a closer look

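DDIT4 in ASO-L1 against ASO-Ctr stood out because every same-number pair moved one way in numbers 1 and 2 (-0.41 and -0.38 in log2 CPM) and the opposite way in numbers 3 and 4 (0.30 and 0.09). The difference of the changes, numbers 3 and 4 minus numbers 1 and 2, was 0.59 ± 0.15 on the log2 scale. It did not pass edgeR's test over all genes (adjusted p = 0.232). DESeq2 gave an adjusted p of 0.0498 and edgeR with no filter on low counts 4.24e-11, and leaving out 1 library gave adjusted p-values between 0.0561 and 0.514. DDIT4 was 3.73-fold lower in numbers 3 and 4 over all groups, and what the number sets share was not tested. No library stood apart within a group of 4 for any of the 10 genes by Dixon's test. That test looks for a single outlying value and has little power in a group of 4. It cannot flag a split of numbers 1 and 2 from numbers 3 and 4.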

How the results depend on the processing

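The rises of ATF3, ATF4, ATF5, DDIT3, TRIB3 and PPP1R15A in both ASO-L1 comparisons passed edgeR's or DESeq2's test under every alternative run. Leaving out 1 library gave 6 to 8 called regulators against ASO-Ctr and 7 against SO-L1; the lost calls were of PPP1R15B and SESN2. SESN2 also missed with no filter (adjusted p = 0.0769). With the replicate block the genes called were 7747 for ASO-L1 against ASO-Ctr, 7469 against SO-L1 and 243 between the controls, where 3847, 3497 and 5 were called without it, and 2 regulators, ATF3 and PPP1R15A, were then called between the controls; beside SESN2 against SO-L1 it changed no other call of the 10. Numbers 1 and 2 only gave 6045, 5863 and 124 genes, and numbers 3 and 4 only 6103, 5861 and 201, with 1 and 3 regulators between the controls. Between the controls DESeq2 called 52 genes and 1 regulator, total count scaling 8 genes and no filter 8. The set difference of the ASO-L1 change was called for 134 genes, for 68 by DESeq2 and for 74 to 253 when 1 library was left out (74 without ASO-Ctr number 3, 253 without ASO-Ctr number 1).

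Directions turned only where no call stood in the fit to all libraries. In numbers 1 and 2 only, ATF5 between the controls was -0.031; in numbers 3 and 4 only, CHAC1 against SO-L1 was 0.072 and DDIT4 against ASO-Ctr 0.19; with total count scaling, ATF4 between the number sets was 0.0095. Leaving out 1 library gave log2 ranges of -0.037 to 0.26 for CHAC1 and -0.60 to 0.14 for DDIT4 against ASO-Ctr, and -0.20 to 0.085 for CHAC1 against SO-L1. Between the controls the ranges were -0.019 to 0.081 for ATF5, -0.19 to 0.55 for DDIT4, -0.073 to 0.0027 for PPP1R15B and -0.0056 to 0.12 for SESN2. For the set difference of the ASO-L1 change they were -0.0076 to 0.073 for ATF4, -0.25 to 0.016 for DDIT3 and -0.28 to 0.010 for TRIB3. The cause was not tested. At these depths the 10 genes had between 156 (DDIT3) and 10570 (ATF4) counts per library.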
